A study of Mus musculus with 6 samples.

Results

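The collagens are the structural proteins of the extracellular matrix, and their genes were followed here in mouse hearts after transverse aortic constriction (TAC). In TAC the aortic arch is partly tied off, and the left ventricle must pump against a raised pressure. All genes whose listed symbol is Col, a number, a and a number were taken, with no use of their values. This gave 44 of the 23995 genes listed. RNA sequencing had been done on 3 libraries from LTBP4-CKO hearts and 3 from WT hearts, with expression given as FPKM (fragment counts divided by transcript length and by library size). LTBP4-CKO mice had an inducible deletion of *Ltbp4* in cardiomyocytes, and mice of both genotypes underwent TAC at an age of 10 to 12 weeks. The labels name neither the driver of the deletion nor the agent that induced it, and do not give the time between operation and collection. The names of the WT libraries carry the word flox, but whether these mice had floxed alleles is not stated. No heart without TAC was analysed here, so each difference below is between genotypes after TAC.

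Collagen chains fold into triple helices of 3 chains, which the cell hydroxylates on proline and lysine, secretes, trims and cross-links. Fibrillar collagens form the rope-like fibres of scar and interstitium, fibril-associated collagens with interrupted triple helices (FACIT collagens) sit on those fibres, type VI collagen forms beaded filaments, and type IV collagen forms the sheet of the basement membrane around myocytes and vessels. In the heart, fibroblasts are the main source of the fibrillar chains, while endothelial and mural cells also make type IV collagen. *Ltbp4*, the deleted gene, encodes a matrix protein that binds latent TGF-beta, and TGF-beta is a known inducer of collagen genes.

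The libraries differed in more than genotype. Recovered depth was about 14100000, 5900000 and 6700000 fragments for LTBP4-CKO libraries 1 to 3, against 5600000, 3600000 and 5900000 for WT libraries 1 to 3. LTBP4-CKO libraries 2 and 3 differed by little more than counting noise, and so did WT libraries 1 and 3 (1.31 to 1.89 times the counting variance), and in the remaining 13 pairs this index was 87.6 to 284 for the deepest genes. Each close pair was averaged and counted as 1 sample, which left 2 LTBP4-CKO and 2 WT samples. The summed FPKM of 4 atrial cardiomyocyte markers (*Sln*, *Myl4*, *Myl7*, *Nppa*) was 13894, 268 and 260 in LTBP4-CKO libraries 1 to 3, against 37229, 1537 and 37334 in WT libraries 1 to 3. In LTBP4-CKO library 1 this sum was nearly all *Nppa* (13882 FPKM), with *Sln* at 0.684 and *Myl4* at 8.11 FPKM. *Nppa* also made up most of the sum in LTBP4-CKO libraries 2 and 3 (233 and 232 FPKM) and in WT library 2 (1511 FPKM). In WT libraries 1 and 3 *Sln* had 1857 and 1847 FPKM and *Myl4* 2629 and 2560 FPKM. The sum of 3 ventricular markers (*Myl2*, *Myl3*, *Myh7*) was 42237, 13545 and 13366 in LTBP4-CKO libraries, against 1809, 13387 and 1820 in WT libraries. The atrial gene *Myl7* had 2.82, 14.3 and 9.44 FPKM in LTBP4-CKO libraries, against 2213, 5.91 and 2221 FPKM in WT libraries. The libraries thus differed in atrial and ventricular transcripts, while the labels give the tissue as heart and name no chamber. WT libraries 1 and 3 stood apart by high *Sln*, *Myl4* and *Myl7* and by the lowest ventricular sums. LTBP4-CKO library 1 stood apart otherwise, by high *Nppa* with low *Sln*, *Myl4* and *Myl7* and by the highest ventricular sum. The main collagen estimates and several, but not all, class and list medians are also given without these libraries. *Ltbp4* itself had 139, 199 and 195 FPKM in LTBP4-CKO libraries, against 368, 248 and 357 FPKM in WT libraries, a log2 fold change of −0.86 (SE 0.49) (limma, Benjamini-Hochberg adjusted p = 0.999). Whether the samples came from separate animals is not stated, so the p-values measure only the spread between these samples, which may be technical.

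Most collagen transcripts had lower values in LTBP4-CKO than in WT hearts, but no collagen gene passed the test. Of the 44 genes, 31 reached 1 FPKM in at least 3 libraries and were tested. The estimated log2 fold change (LTBP4-CKO minus WT, on log2(FPKM + 1)) was below 0 for 30 of them, against 45.8% of all genes tested, and above 0 for *Col9a3*. The median of the 31 was −0.74, against 0.04 over the 12485 genes tested. The 2 WT samples differed from each other by about as much. Their median difference (WT libraries 1 and 3 minus WT library 2) was 0.73 over the 31 genes, against 0.00 over all genes tested. For the type IV genes it was 0.98 and for the network collagens 1.61, larger in size than their genotype medians of −0.63 and −0.91. In 18 of the 31 every LTBP4-CKO library was below every WT library, against a background of 11.5%, and none was above in every library, against 10.4%. The adjusted p was 0.999 for each collagen gene (limma, Benjamini-Hochberg), and 1 gene in all, not a collagen, was called (0.00801%). An unadjusted limma p under 0.05 was reached by 7 collagen genes, all lower in LTBP4-CKO, against 2.29% of all genes lower and 3% in either direction. Of the 31 genes, 27 reached 1 FPKM in libraries of both genotypes and 4 (*Col4a6*, *Col7a1*, *Col12a1* and *Col22a1*) in WT libraries alone, so that these 4 could enter with a low LTBP4-CKO value and not the reverse. All 4 are among the 18 without overlap, and *Col22a1* is among the 7. Of the 27 genes, 26 had estimates below 0, 14 did not overlap and 6 had an unadjusted p under 0.05. These are bulk heart RNA samples, in which fewer cells of a type and less RNA per cell cannot be told apart.

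Without WT libraries 1 and 3, which had the high atrial sums, 22 of the 31 estimates were below 0, with a median of −0.46, against 45.4% of all genes below 0. *Col1a1* was then at −0.90, *Col1a2* at −0.82, *Col3a1* at −0.80, *Col5a1* at −0.50, *Col5a2* at −0.48 and *Col16a1* at −1.18. Without LTBP4-CKO library 1, 25 of 31 were below 0, with a median of −0.95, against 50.2% of all genes. *Col1a1* was then at −1.36, *Col1a2* at −1.51, *Col3a1* at −1.43, *Col5a1* at −1.22, *Col5a2* at −1.80 and *Col16a1* at −1.37. Each of these settings left 1 sample in a genotype, which is assumed to vary like the other genotype, so the estimates are given as values with no test.

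**Figure D1:**
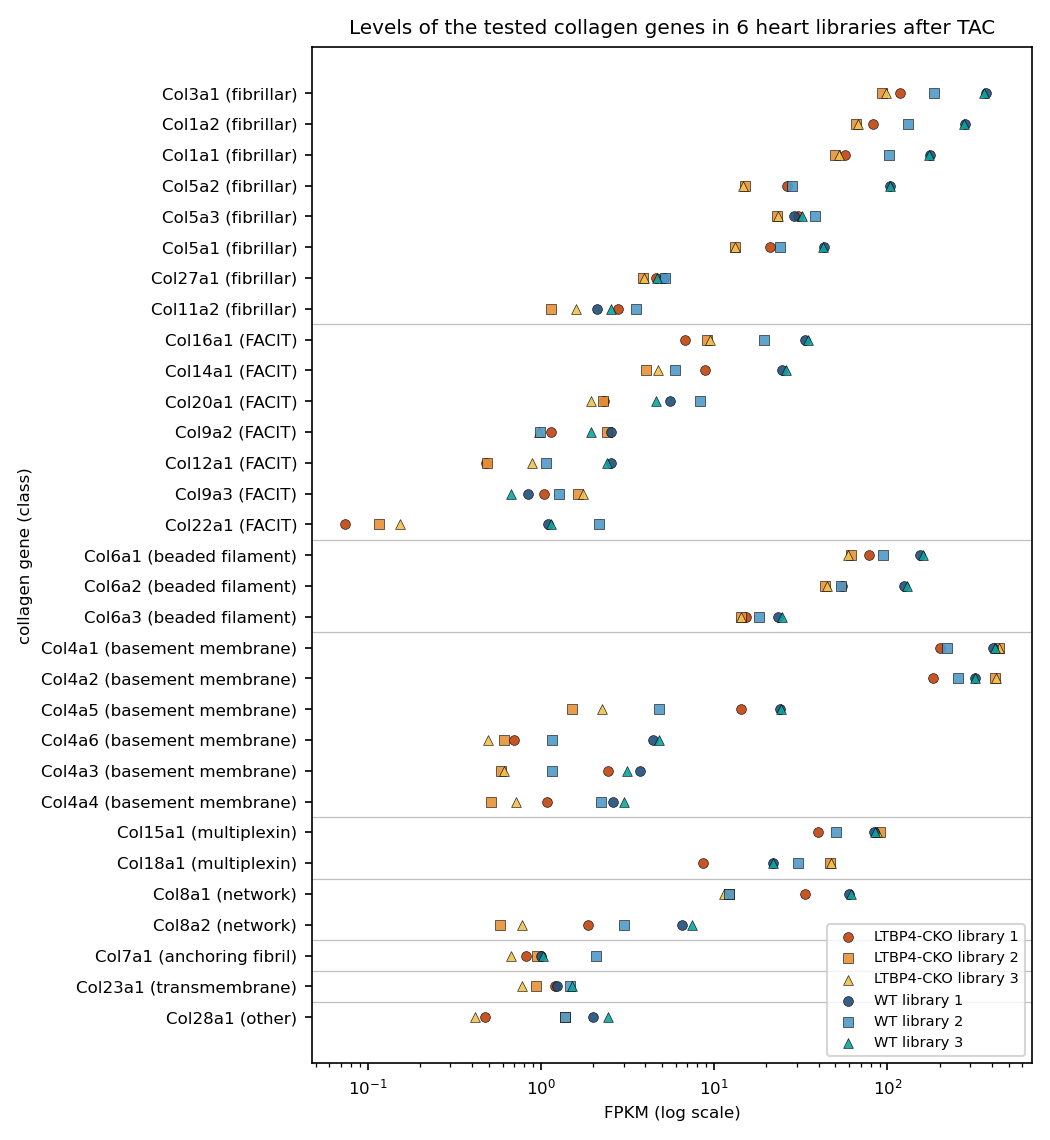
FPKM (log scale) of the 31 tested collagen genes, grouped by class, with 1 point per library for LTBP4-CKO libraries 1 to 3 (warm colours) and WT libraries 1 to 3 (cool colours). The close pairs lie nearly on top of each other, and for *Col1a1*, *Col1a2* and *Col3a1* all LTBP4-CKO points (49.9 to 118 FPKM) lie left of the WT points of the same gene.

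The main fibre-forming chains were lower in every LTBP4-CKO library than in every WT library. *Col1a1*, which encodes the alpha 1 chain of type I collagen, had 57.1, 49.9 and 52.7 FPKM in LTBP4-CKO libraries 1 to 3, against 175, 102 and 173 FPKM in WT libraries 1 to 3. Its sample mean was 54.2 ± 4.13 FPKM in LTBP4-CKO and 138 ± 51.2 FPKM in WT (SD, n = 2 each), a log2 fold change of −1.28 (SE 0.44, 95% interval −2.35 to −0.22). This interval and those below are not adjusted for the number of genes tested, so one that leaves out 0 is not a call. The 3 LTBP4-CKO libraries lay close together, and the WT libraries split into a high pair and WT library 2, which was still above every LTBP4-CKO library. *Col1a2*, its partner in the type I helix, had 82.4, 66.1 and 67.4 FPKM in LTBP4-CKO libraries, against 282, 132 and 276 FPKM in WT libraries (log2 fold change −1.36, SE 0.51). *Col3a1*, the single chain of type III collagen, had 118, 93.6 and 98.1 FPKM in LTBP4-CKO libraries, against 370, 185 and 361 FPKM in WT libraries (log2 fold change −1.29, SE 0.51). The genotypes did not overlap in any of these 3 genes, and their unadjusted limma p values were 0.0253, 0.0344 and 0.0431. *Col1a1* lies on chromosome 11 (94936270 to 94951856, plus strand, mm10), *Col1a2* on chromosome 6 (4505697 to 4541543, plus strand) and *Col3a1* on chromosome 1 (45311538 to 45349706, plus strand), and they are annotated as protein coding with up to 51, 52 and 51 exons per transcript.

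The promoter window of *Col1a2* is printed because *Col1a2* had the lowest estimate of these 3 chains and the promoters of type I collagen genes are known to carry a CCAAT element. Its RefSeq start lies 79 bases upstream of the listed start given above, so the whole window lies upstream of that listed start. The window runs 250 bases before to 50 bases after the RefSeq start (chr6:4505368-4505667, plus strand, GRCm38.p6), and capitals mark CCAAT on either strand:
Col1a2 promoter: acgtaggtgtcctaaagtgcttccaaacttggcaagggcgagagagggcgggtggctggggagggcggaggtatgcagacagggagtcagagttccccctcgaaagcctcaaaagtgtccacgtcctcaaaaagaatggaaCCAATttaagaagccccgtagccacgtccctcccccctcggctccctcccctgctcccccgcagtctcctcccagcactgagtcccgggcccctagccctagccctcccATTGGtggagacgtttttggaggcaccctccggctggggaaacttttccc

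The letters CCAAT (or ATTGG, the other strand) occurred 2 times in the *Col1a2* window and in 13 of the 38 RefSeq windows found for 35 collagen genes (34.2%), against 37.4% of windows of all genes. GGGCGG on either strand occurred in 23 collagen windows (60.5%), against 35.7% of all windows, and the median GC content was 59.8% in collagen windows and 52.7% in all windows. TATAAA occurred in 5 collagen windows (13.2%), against 13.6% of all windows. These are counts of letters in a window and say nothing of factor binding.

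The type V chains, which join type I chains in mixed fibrils and limit fibril width, were less uniform. *Col5a2* had 26.4, 15.1 and 14.7 FPKM in LTBP4-CKO libraries 1 to 3, against 104, 28.2 and 103 FPKM in WT libraries 1 to 3 (log2 fold change −1.40, SE 0.65). LTBP4-CKO library 1 and WT library 2 nearly met. *Col5a1* had 21, 13.2 and 13.2 FPKM in LTBP4-CKO libraries, against 42.9, 24 and 42.2 FPKM in WT libraries (log2 fold change −0.90, SE 0.44), without overlap. *Col5a3* had 30.4, 23 and 23.3 FPKM in LTBP4-CKO libraries, against 28.9, 38 and 32.2 FPKM in WT libraries (log2 fold change −0.35, SE 0.37), and here LTBP4-CKO library 1 lay above WT library 1. *Col5a3* was highest in WT library 2, where the other type V chains were lowest among WT libraries.

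The remaining tested fibrillar genes were low. *Col27a1*, a chain of cartilage-type fibrils, had 4.6, 3.88 and 3.91 FPKM in LTBP4-CKO libraries, against 5.13, 5.23 and 4.67 FPKM in WT libraries. Its genotypes did not overlap, by a margin smaller than the spread within either genotype, and the log2 fold change was −0.21 (SE 0.36). *Col11a2*, a chain of type XI collagen, overlapped with 2.77, 1.14 and 1.6 FPKM in LTBP4-CKO libraries, against 2.11, 3.53 and 2.54 FPKM in WT libraries. All 8 tested fibrillar genes had estimates below 0, with a median of −1.09. The estimates of all 8 stayed below 0 without WT libraries 1 and 3 (median −0.55) and without LTBP4-CKO library 1 (median −1.29).

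**Figure D2:**
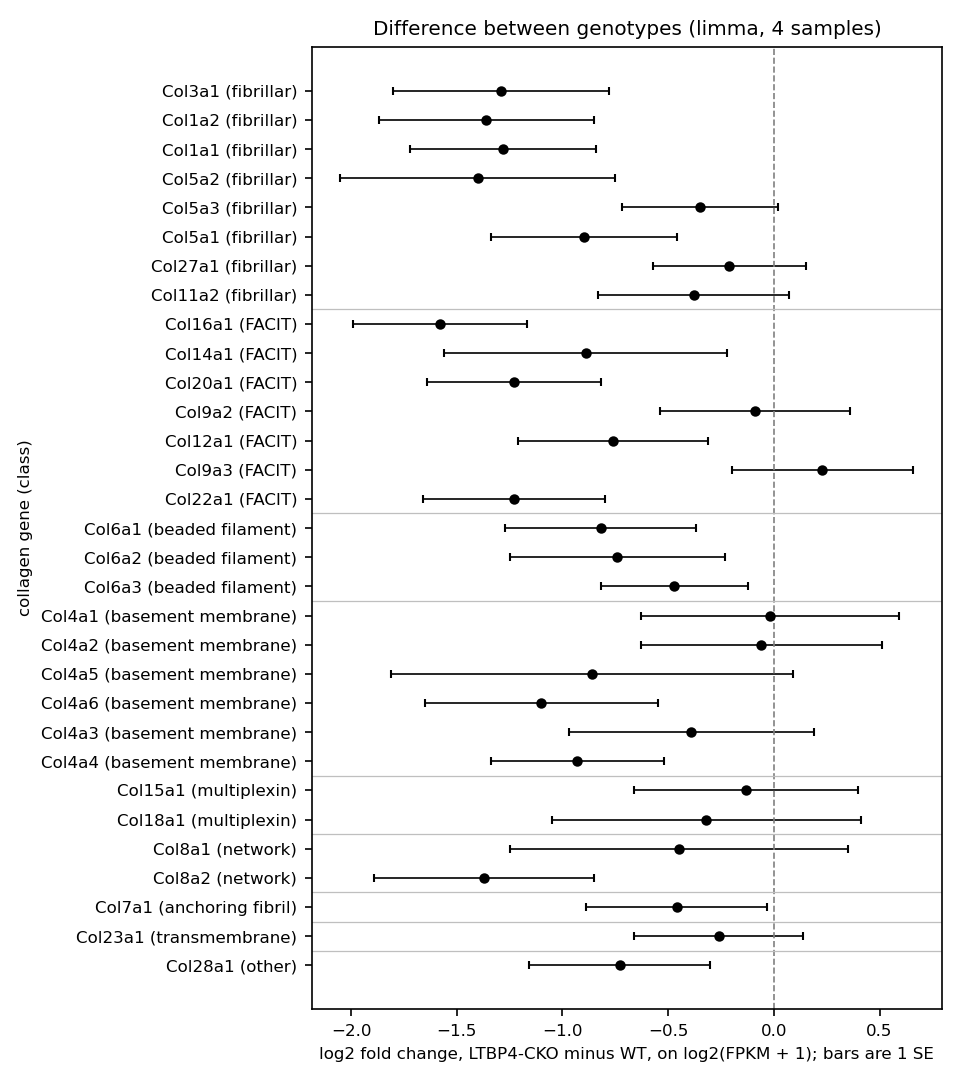
Estimated log2 fold change (x axis, LTBP4-CKO minus WT, on log2(FPKM + 1)) of each tested collagen gene by class, as a point with 1 SE to each side from the limma fit of 4 samples. The points run from −1.58 for *Col16a1* to 0.23 for *Col9a3*, with *Col4a1* (−0.02), *Col4a2* (−0.06) and *Col15a1* (−0.13) near the dashed line at 0.

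Among the FACIT collagens *Col16a1* had the smallest unadjusted p of all collagen genes (limma, 0.00748). *Col16a1*, which encodes the chain of type XVI collagen, had 6.74, 9.08 and 9.48 FPKM in LTBP4-CKO libraries 1 to 3, against 33.3, 19.3 and 34.8 FPKM in WT libraries 1 to 3. Its estimate on the log2 scale was −1.58 (SE 0.41), with an unadjusted 95% interval of −2.57 to −0.59. LTBP4-CKO library 1, the highest LTBP4-CKO library for *Col1a1*, *Col1a2* and *Col3a1*, was the lowest for *Col16a1*. *Col20a1* had 2.31, 2.29 and 1.95 FPKM in LTBP4-CKO libraries, against 5.58, 8.29 and 4.6 FPKM in WT libraries (log2 fold change −1.23, SE 0.41). *Col22a1*, a chain found at myotendinous junctions, had 0.0735, 0.116 and 0.154 FPKM in LTBP4-CKO libraries, against 1.1, 2.15 and 1.14 FPKM in WT libraries (log2 fold change −1.23, SE 0.43). In both of these genes WT library 2 was the highest library, unlike in the type I and III genes, and the genotypes did not overlap.

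*Col14a1* and *Col12a1* encode FACIT collagens that coat type I fibrils. *Col14a1* had 8.83, 4.05 and 4.76 FPKM in LTBP4-CKO libraries, against 24.6, 5.93 and 25.8 FPKM in WT libraries (log2 fold change −0.89, SE 0.67). LTBP4-CKO library 1 lay above WT library 2, and without WT libraries 1 and 3 the estimate was 0.07. *Col12a1* was low and did not overlap, with 0.481, 0.488 and 0.891 FPKM in LTBP4-CKO libraries, against 2.53, 1.07 and 2.4 FPKM in WT libraries. The type IX genes were near 1 FPKM and overlapped. *Col9a2* had 1.14, 2.39 and 0.97 FPKM in LTBP4-CKO libraries, against 2.54, 0.992 and 1.95 FPKM in WT libraries (log2 fold change −0.09, SE 0.45). *Col9a3* had an estimate of 0.23 (SE 0.43), with 1.04, 1.64 and 1.75 FPKM in LTBP4-CKO libraries, against 0.837, 1.27 and 0.668 FPKM in WT libraries. Of 3853 exonic bases of *Col9a3*, 234 are shared with *Tcfl5* on the other strand in GENCODE M21, and whether the counting used strand is not stated.

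The 3 expressed type VI chains, which assemble into beaded filaments close to cell surfaces, all had estimates below 0. *Col6a1* had 78.4, 61.8 and 58.8 FPKM in LTBP4-CKO libraries 1 to 3, against 155, 94.6 and 161 FPKM in WT libraries 1 to 3 (log2 fold change −0.82, SE 0.45). *Col6a2*, its neighbour on chromosome 10 (85387 bases apart, same strand), had 54.6, 43.8 and 44.5 FPKM in LTBP4-CKO libraries, against 124, 53.8 and 129 FPKM in WT libraries (log2 fold change −0.74, SE 0.51). *Col6a3* had 15.2, 14.2 and 14.3 FPKM in LTBP4-CKO libraries, against 23.3, 18.1 and 24.6 FPKM in WT libraries (log2 fold change −0.47, SE 0.35). *Col6a1* and *Col6a3* did not overlap between genotypes, and *Col6a2* overlapped through LTBP4-CKO library 1 and WT library 2. The class median of −0.74 was −0.28 without WT libraries 1 and 3 and −0.89 without LTBP4-CKO library 1.

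The major type IV chains of the basement membrane did not follow the fibrillar genes. *Col4a1* had 202, 442 and 439 FPKM in LTBP4-CKO libraries 1 to 3, against 407, 220 and 419 FPKM in WT libraries 1 to 3. *Col4a2* had 182, 416 and 422 FPKM in LTBP4-CKO libraries, against 319, 257 and 322 FPKM in WT libraries. For both, LTBP4-CKO libraries 2 and 3 were the highest of the 6 libraries and LTBP4-CKO library 1 was the lowest. The log2 fold changes were −0.02 (SE 0.61, 95% interval −1.47 to 1.44) for *Col4a1* and −0.06 (SE 0.57, 95% interval −1.42 to 1.31) for *Col4a2*, although their sample means in FPKM were slightly higher in LTBP4-CKO (321 ± 169 and 301 ± 168) than in WT (317 ± 137 and 289 ± 45, SD, n = 2 each). Without LTBP4-CKO library 1 both estimates were 0.55, and without WT libraries 1 and 3 they were 0.44 and 0.10. These intervals are wide enough to hold a difference as large as that of the type I genes.

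*Col4a1* and *Col4a2* lie head to head on chromosome 8 (11198423 to 11312826, minus strand, and 11312829 to 11449287, plus strand, mm10), with 2 bases between them, and are known to share a bidirectional promoter. Their RefSeq windows are printed because both genes were lowest in LTBP4-CKO library 1, next lowest in WT library 2 and highest in LTBP4-CKO libraries 2 and 3. Capitals mark the 78 bases that the windows share, read from opposite strands (chr8:11312777-11313076, minus strand, and chr8:11312555-11312854, plus strand, GRCm38.p6):
Col4a1 promoter: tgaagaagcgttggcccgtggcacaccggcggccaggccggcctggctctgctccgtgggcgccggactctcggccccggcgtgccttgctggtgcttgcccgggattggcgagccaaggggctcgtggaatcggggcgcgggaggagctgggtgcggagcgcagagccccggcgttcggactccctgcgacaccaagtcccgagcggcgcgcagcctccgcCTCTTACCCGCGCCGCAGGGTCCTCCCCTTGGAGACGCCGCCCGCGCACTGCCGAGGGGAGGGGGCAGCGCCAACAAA
Col4a2 promoter: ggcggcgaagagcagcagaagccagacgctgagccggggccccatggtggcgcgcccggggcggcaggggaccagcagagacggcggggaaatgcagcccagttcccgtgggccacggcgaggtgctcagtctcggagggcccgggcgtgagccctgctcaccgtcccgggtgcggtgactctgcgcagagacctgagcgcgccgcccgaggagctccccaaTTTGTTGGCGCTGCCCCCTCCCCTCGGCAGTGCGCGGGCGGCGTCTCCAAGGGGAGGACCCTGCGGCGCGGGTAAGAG

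The windows had a GC content of 74% (*Col4a1*) and 73.7% (*Col4a2*), held CCAAT 1 time each on either strand, and held no TATAAA. The 2 bases between the genes follow from the positions in the deposited values, whereas exons of the 2 genes in GENCODE M21 overlap by 22 bases.

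The minor type IV chains, which replace the major ones in specialised basement membranes, had a different order of libraries. *Col4a5* had 14.3, 1.51 and 2.26 FPKM in LTBP4-CKO libraries 1 to 3, against 24.1, 4.79 and 24.3 FPKM in WT libraries 1 to 3 (log2 fold change −0.86, SE 0.95). Its partner gene on the X chromosome, *Col4a6* (head to head, 1342 bases apart), had 0.697, 0.61 and 0.494 FPKM in LTBP4-CKO libraries, against 4.41, 1.16 and 4.78 FPKM in WT libraries (log2 fold change −1.10, SE 0.55). *Col4a5* was thus highest in WT libraries 1 and 3, followed by LTBP4-CKO library 1, and overlapped between genotypes. *Col4a6* was high in WT libraries 1 and 3 alone and did not overlap. *Col4a4* and *Col4a3* are also head to head, 71 bases apart on chromosome 1. *Col4a4* had 1.08, 0.516 and 0.716 FPKM in LTBP4-CKO libraries, against 2.61, 2.21 and 3.02 FPKM in WT libraries (log2 fold change −0.93, SE 0.41), without overlap. *Col4a3* overlapped, with 2.45, 0.588 and 0.612 FPKM in LTBP4-CKO libraries, against 3.71, 1.15 and 3.14 FPKM in WT libraries (log2 fold change −0.39, SE 0.58), and 563 of its 9967 exonic bases are shared with *C430014B12Rik* on the other strand in GENCODE M21. Of the 6 type IV genes, all had estimates below 0 (median −0.63), but 2 of 6 did without WT libraries 1 and 3 (median 0.12).

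**Figure D3:**
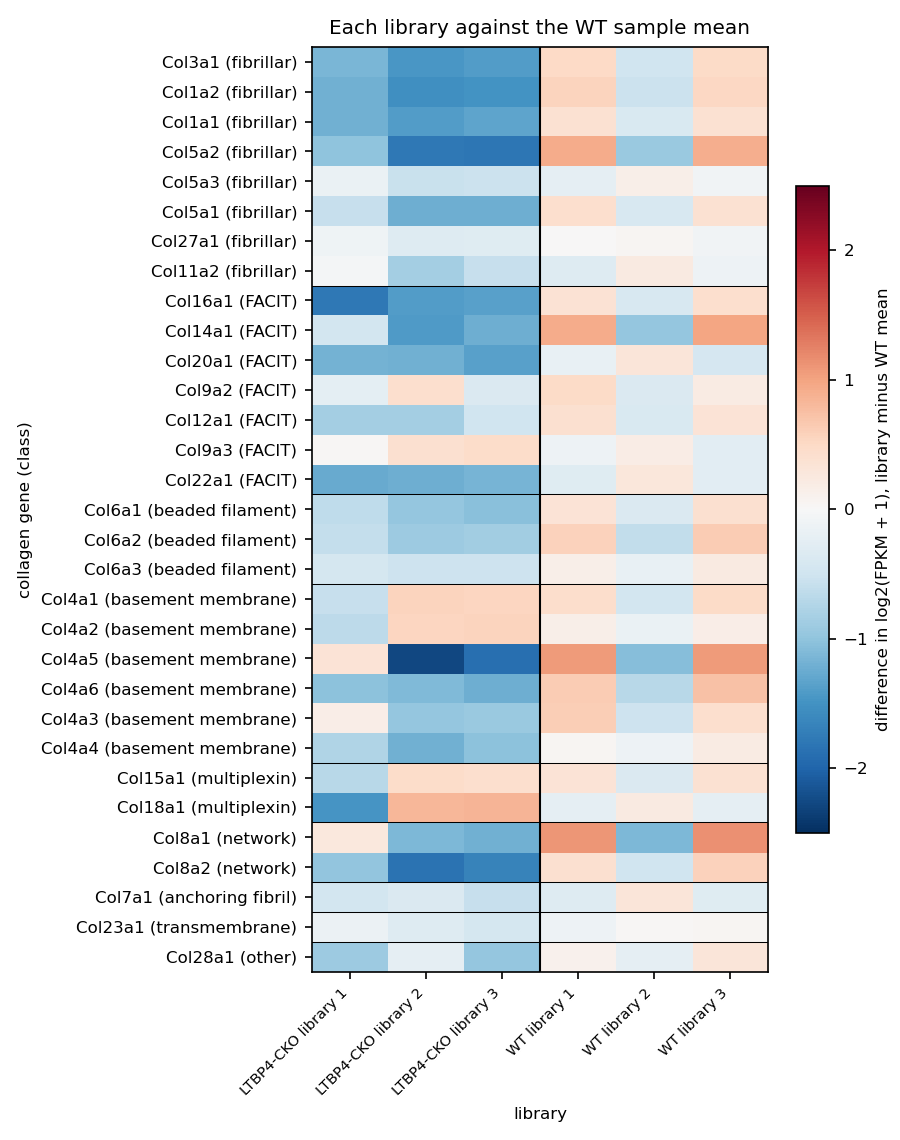
Difference between each library and the mean of the WT samples in log2(FPKM + 1) (colour, blue lower and red higher) for each tested collagen gene (rows, by class) and library (columns, LTBP4-CKO left of the line and WT right of it). The fibrillar rows are blue in the LTBP4-CKO columns, palest for *Col5a3*, *Col27a1* and *Col11a2* in library 1, whereas *Col4a1*, *Col4a2*, *Col15a1* and *Col18a1* are blue in LTBP4-CKO library 1 and red in LTBP4-CKO libraries 2 and 3.

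The multiplexins, basement membrane collagens that carry long sugar chains and release antiangiogenic fragments, were also lowest in LTBP4-CKO library 1 and highest in LTBP4-CKO libraries 2 and 3. *Col15a1* had 39.8, 90.1 and 87.6 FPKM in LTBP4-CKO libraries 1 to 3, against 83.1, 50.6 and 84.9 FPKM in WT libraries 1 to 3 (log2 fold change −0.13, SE 0.53). *Col18a1*, the source of endostatin, had 8.67, 46.7 and 47 FPKM in LTBP4-CKO libraries, against 21.9, 30.4 and 21.9 FPKM in WT libraries (log2 fold change −0.32, SE 0.73). On the log2 scale LTBP4-CKO libraries 2 and 3 were above LTBP4-CKO library 1 by 1.14 for *Col15a1* and by 2.31 for *Col18a1*. Without LTBP4-CKO library 1 the estimates were 0.44 and 0.83. Without WT libraries 1 and 3 they were 0.23 and −0.55.

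The type VIII chains form hexagonal networks under endothelium and around vessels. *Col8a1* had 33.2, 12.2 and 11.4 FPKM in LTBP4-CKO libraries 1 to 3, against 60.1, 12.2 and 62 FPKM in WT libraries 1 to 3 (log2 fold change −0.45, SE 0.80). WT library 2 was level with LTBP4-CKO libraries 2 and 3, and without WT libraries 1 and 3 the estimate was 0.67. *Col8a2* had 1.86, 0.583 and 0.776 FPKM in LTBP4-CKO libraries, against 6.53, 3.03 and 7.43 FPKM in WT libraries (log2 fold change −1.37, SE 0.52), without overlap.

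Each of the remaining classes had 1 tested gene, and its genotypes did not overlap. *Col7a1*, the chain of anchoring fibrils, had 0.817, 0.947 and 0.672 FPKM in LTBP4-CKO libraries, against 1, 2.08 and 1.03 FPKM in WT libraries (log2 fold change −0.46, SE 0.43). *Col23a1*, a transmembrane collagen, had 1.2, 0.941 and 0.779 FPKM in LTBP4-CKO libraries, against 1.23, 1.47 and 1.52 FPKM in WT libraries (log2 fold change −0.26, SE 0.40). *Col28a1* had 0.473, 1.37 and 0.417 FPKM in LTBP4-CKO libraries, against 1.99, 1.38 and 2.43 FPKM in WT libraries (log2 fold change −0.73, SE 0.43). In each of the 3 the nearest LTBP4-CKO and WT libraries differed by little.

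The other 13 collagen genes did not reach the level for testing. *Col13a1*, a transmembrane collagen, had 1.1, 0.322 and 0.342 FPKM in LTBP4-CKO libraries, against 1.3, 0.934 and 0.523 FPKM in WT libraries. *Col2a1*, the main fibrillar collagen of cartilage, had 0.201, 0 and 0 FPKM in LTBP4-CKO libraries, against 1.08, 0.176 and 0.956 FPKM in WT libraries. *Col6a5*, *Col6a6*, *Col10a1*, *Col11a1*, *Col17a1*, *Col19a1*, *Col24a1*, *Col25a1* and *Col26a1* were at or below 0.727 FPKM in every library. *Col6a4* and *Col9a1* were listed at 0 in all 6.

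The make-up of the collagen transcripts also differed between libraries. The summed FPKM of all 44 genes was 1001, 1421 and 1428 in LTBP4-CKO libraries 1 to 3, against 2324, 1313 and 2342 in WT libraries 1 to 3, so the total in WT library 2 lay within the LTBP4-CKO range. Fibrillar genes made up 34.2%, 18.7% and 19.3% of this sum in LTBP4-CKO libraries, against 43.6%, 39.5% and 42.6% in WT libraries. Type IV genes made up 40.2%, 60.6% and 60.6% in LTBP4-CKO libraries, against 32.8%, 37% and 33.1% in WT libraries. In both shares the genotypes did not overlap, and LTBP4-CKO library 1 lay nearer to the WT libraries than its partners did. Multiplexins made up 4.84%, 9.63% and 9.43% in LTBP4-CKO libraries, against 4.52%, 6.17% and 4.56% in WT libraries, with overlap.

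**Figure D4:**
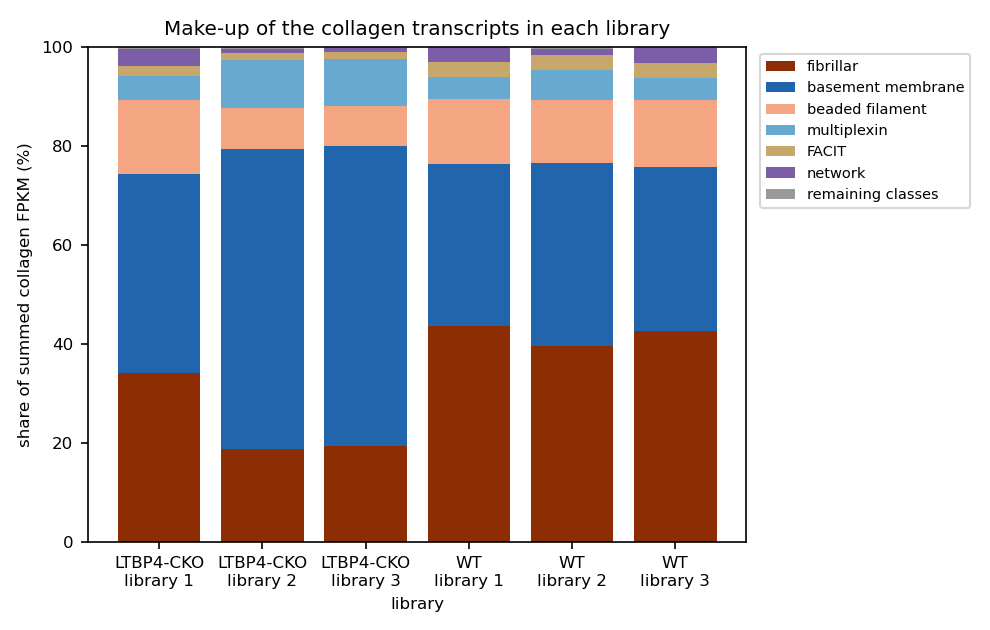
Share of summed collagen FPKM (y axis, %) held by each class in LTBP4-CKO libraries 1 to 3 and WT libraries 1 to 3 (x axis). The fibrillar share at the foot of each bar is 18.7% to 34.2% in LTBP4-CKO and 39.5% to 43.6% in WT, and the type IV share above it is 40.2% to 60.6% in LTBP4-CKO and 32.8% to 37% in WT.

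Ratios of FPKM within a library do not depend on the scaling between libraries, and 14 were compared. The ratio of *Col4a1* to *Col1a1* was 3.53, 8.86 and 8.33 in LTBP4-CKO libraries 1 to 3, against 2.33, 2.16 and 2.42 in WT libraries 1 to 3, a difference of 1.28 on the log2 scale over samples. The WT libraries agreed closely although their levels of both genes differed, and the LTBP4-CKO libraries did not. The ratio of *Col5a1* to *Col1a1* was 0.367, 0.265 and 0.25 in LTBP4-CKO libraries, against 0.245, 0.236 and 0.243 in WT libraries, a difference of 0.36 on the log2 scale that was 0.10 without LTBP4-CKO library 1. The ratio of *Col6a3* to *Col6a1* was 0.194, 0.229 and 0.243 in LTBP4-CKO libraries, against 0.15, 0.191 and 0.152 in WT libraries, a difference of 0.33 that was 0.50 without WT library 2. These 3 ratios were higher in every LTBP4-CKO library, and in the other 11 the libraries overlapped. An exact two-sided permutation test gave p = 0.333 for each of these 3 over the samples (2 against 2), the smallest p possible. The same exact permutation test over the libraries (3 against 3) gave p = 0.1, the smallest p possible there. After Benjamini-Hochberg adjustment over the 14 ratios, these exact permutation p values were 1 (samples) and 0.467 (libraries). The test over the libraries counts both members of each close pair as separate samples. Its p is therefore lower than the samples allow.

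Several pairs of chains that form a helix or a matrix together had ratios that overlapped closely between the libraries. The ratio of *Col3a1* to *Col1a1* was 2.06, 1.88 and 1.86 in LTBP4-CKO libraries, against 2.12, 1.82 and 2.08 in WT libraries. The ratio of *Col1a1* to *Col1a2* was 0.694, 0.755 and 0.782 in LTBP4-CKO libraries, against 0.62, 0.771 and 0.627 in WT libraries, and that of *Col4a1* to *Col4a2* was 1.11, 1.06 and 1.04 in LTBP4-CKO libraries, against 1.27, 0.856 and 1.3 in WT libraries. The ratio of *Col15a1* to *Col4a1* was 0.197, 0.204 and 0.199 in LTBP4-CKO libraries, against 0.204, 0.23 and 0.203 in WT libraries. Over the samples this ratio did not overlap and was lower in LTBP4-CKO, by −0.12 on the log2 scale (exact permutation test, p = 0.333). Without WT library 2 the difference was −0.03. The levels of *Col15a1* and *Col4a1* thus differed more between libraries than their ratio did. The ratio of *Col5a2* to *Col5a1*, which share a helix, was less even, with 1.26, 1.14 and 1.11 in LTBP4-CKO libraries, against 2.43, 1.17 and 2.43 in WT libraries. The ratio of *Col4a5* to *Col4a1* varied most of the 14, with 0.0708, 0.00342 and 0.00514 in LTBP4-CKO libraries, against 0.0593, 0.0218 and 0.058 in WT libraries.

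**Figure D5:**
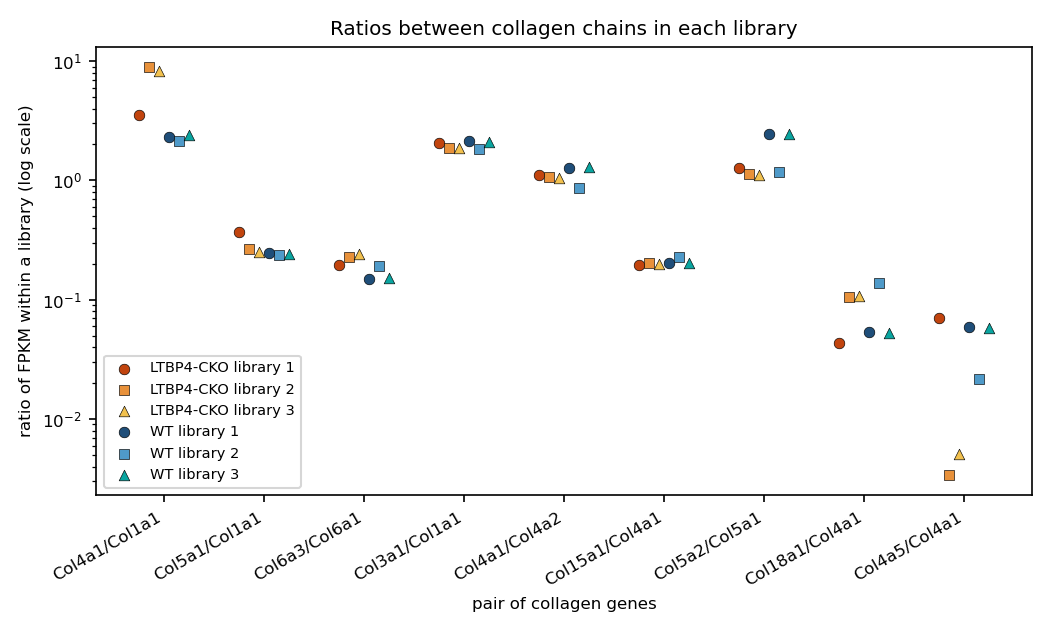
Ratio of FPKM of 2 collagen genes within a library (y axis, log scale) for 9 of the 14 ratios (x axis), with LTBP4-CKO libraries in warm colours left of WT libraries in cool colours. All LTBP4-CKO points for *Col4a1*/*Col1a1* (3.53 to 8.86) lie above the WT points (2.16 to 2.42), whereas those for *Col15a1*/*Col4a1* lie at 0.197 to 0.204 beside WT points at 0.203 to 0.23.

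The genes that modify, secrete, process and degrade collagen were described from 7 lists with 74 genes. Of the 66 tested, 53 had estimates below 0 and 13 at or above 0, with a median of −0.48, and none passed (limma, Benjamini-Hochberg). Over all genes tested, 45.8% were below 0. In 20 of the 66 every LTBP4-CKO library was below every WT library (11.5% of all genes), and in 1, *Prep*, every one was above (10.4% of all genes). The median of the 66 was −0.19 (46 below 0) without WT libraries 1 and 3 and −0.65 (47 below 0) without LTBP4-CKO library 1. The cross-linking enzymes and the fibril assembly partners had the lowest medians, −1.11 (4 of 5 below 0) and −1.10 (11 of 11 below 0). These medians were −0.42 and −0.48 without WT libraries 1 and 3, and without LTBP4-CKO library 1 they were −1.19 and −1.91. *Loxl3*, a lysyl oxidase that starts collagen cross-links, had 9.93, 8.83 and 9.56 FPKM in LTBP4-CKO libraries 1 to 3, against 77.5, 28.5 and 77.1 FPKM in WT libraries 1 to 3 (log2 fold change −2.19, SE 0.51). *Loxl1* had an estimate of −1.11, *Lox* of −1.47 and *Loxl4* of −0.61, and *Lox* was the 1 of these 4 that overlapped. *Fmod*, a small proteoglycan that binds type I fibrils, had 8.92, 4.18 and 3.94 FPKM in LTBP4-CKO libraries, against 98.5, 39.4 and 97.3 FPKM in WT libraries (log2 fold change −3.16, SE 0.56). *Bgn* (−1.49), *Prelp* (−1.62) and *Postn* (−1.10), which also bind fibrils or their partners, did not overlap either. With *Fmod* they were named for the smallest p of the fibril assembly partners, of which 4 of 11 did not overlap. Without WT libraries 1 and 3, *Loxl3* was at −1.48, *Lox* at 0.17 and *Fmod* at −2.51.

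The steps inside the cell had medians nearer to 0. The prolyl and lysyl modification list had a median of −0.26 (12 of 15 below 0). Its members with the smallest p were *P4ha3*, a prolyl 4-hydroxylase subunit (−1.24), the prolyl 3-hydroxylase family genes *Leprel2* (−0.91) and *Lepre1* (−0.66), and *Colgalt2*, a collagen galactosyltransferase (0.45). The folding and secretion list had a median of −0.16 (6 of 9 below 0), with *Fkbp10* (−0.49), *Fkbp14* (0.37), *Creb3l1* (−0.34) and *Sparc* (−0.39) named by the same rule. *Sparc*, a matrix protein that binds collagen, had 528, 1737 and 1688 FPKM in LTBP4-CKO libraries, against 1596, 989 and 1563 FPKM in WT libraries, lowest in LTBP4-CKO library 1 and highest in LTBP4-CKO libraries 2 and 3 as for *Col4a1*. The medians of these 2 lists were −0.13 and 0.22 without WT libraries 1 and 3, and without LTBP4-CKO library 1 they were −0.05 and −0.10.

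Outside the cell, the propeptide processing list had a median of −0.69 (5 of 6 below 0), with *Adamts2*, which removes the N-propeptide (−1.04), *Pcolce* (−0.97) and *Pcolce2* (−0.86), which enhance C-propeptide removal, and *Bmp1*, which performs it (−0.52). The receptor list had a median of −0.42 (7 of 10 below 0), and 4 of 10 did not overlap. These 4 are also those named for the smallest p: *Itga10* (−1.06), *Mrc2*, a receptor that takes up collagen (−0.77), *Itga11* (−0.71) and *Ddr2* (−0.43). The breakdown list had a median of −0.55 (8 of 10 below 0). Its inhibitor *Timp1* had 49.2, 50.2 and 48 FPKM in LTBP4-CKO libraries, against 301, 112 and 277 FPKM in WT libraries (log2 fold change −1.85, SE 0.54). The protease genes *Mmp2* (−1.04) and *Ctsk* (−0.96) overlapped, and the prolyl peptidase gene *Prep* had an estimate of 0.75. Without WT libraries 1 and 3 the medians were −0.65 (processing), −0.15 (receptors) and −0.25 (breakdown), and *Timp1* was at −1.17. Without LTBP4-CKO library 1 the medians were −0.60 (processing), −0.73 (receptors) and −0.83 (breakdown), and *Timp1* was at −1.85.

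Markers of other cells differed between the same libraries, and their counts stand beside 45.8% of all genes with estimates below 0, 11.5% lower in every LTBP4-CKO library and 10.4% higher in every one. The 8 fibroblast markers summed to 3813, 1088 and 1107 FPKM in LTBP4-CKO libraries 1 to 3, against 6010, 2569 and 5942 FPKM in WT libraries 1 to 3. Their estimates were below 0 in 8 of 8 (median −1.03), and 2 of 8, *Dpt* and *Mfap5*, did not overlap. The sum was carried largely by *Dcn* and *Gsn*, which were higher in LTBP4-CKO library 1 than in WT library 2, whereas *Dpt* and *Mfap5* were lower there, as *Col1a1* was. The fibroblast median was −0.33 without WT libraries 1 and 3 and −1.73 without LTBP4-CKO library 1. The 4 activated fibroblast markers summed to 269, 489 and 476 FPKM in LTBP4-CKO libraries, against 696, 566 and 697 FPKM in WT libraries, with 4 of 4 estimates below 0 and 2 of 4 without overlap. *Cthrc1*, one of them, had 2.26, 3.6 and 2.86 FPKM in LTBP4-CKO libraries, against 56.3, 6.7 and 50.1 FPKM in WT libraries. *Acta2*, another, had 65.6, 323 and 311 FPKM in LTBP4-CKO libraries, against 122, 299 and 117 FPKM in WT libraries, and is also a listed smooth muscle marker. *Dcn*, *Lum*, *Postn*, *Fn1* and *Fmod* are both on cell type lists and among the fibril assembly partners. Counts from lists that share genes are therefore not separate.

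The 6 endothelial markers summed to 785, 1315 and 1322 FPKM in LTBP4-CKO libraries 1 to 3, against 720, 798 and 724 FPKM in WT libraries 1 to 3, with 6 of 6 estimates above 0 (median 0.47) and 4 of 6 higher in every LTBP4-CKO library. LTBP4-CKO libraries 2 and 3 were highest in this sum and in *Col4a1*, *Col15a1* and *Col18a1*. The order of the other libraries differed, since WT libraries 1 and 3 had the lowest endothelial sums but *Col4a1* at 407 and 419 FPKM, and LTBP4-CKO library 1 had a higher endothelial sum than both but the lowest *Col4a1*. The 4 smooth muscle markers summed to 144, 864 and 840 FPKM in LTBP4-CKO libraries, against 392, 930 and 379 FPKM in WT libraries, and the 4 pericyte markers to 173, 72.7 and 71.8 FPKM in LTBP4-CKO libraries, against 77.6, 81.2 and 77.1 FPKM in WT libraries, both with overlap.

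The 3 listed macrophage markers summed to 59.7, 41.5 and 38.2 FPKM in LTBP4-CKO libraries 1 to 3, against 113, 71.5 and 111 FPKM in WT libraries 1 to 3, with 3 of 3 lower in every LTBP4-CKO library (median −0.73). The 5 cartilage and valve markers summed to 34.9, 29.7 and 30 FPKM in LTBP4-CKO libraries, against 781, 178 and 782 FPKM in WT libraries, with 5 of 5 estimates below 0 and 3 of 5 without overlap. This sum was carried largely by *Comp*, with 22.4, 23.7 and 24 FPKM in LTBP4-CKO libraries, against 672, 132 and 673 FPKM in WT libraries. *Acan* (−0.16) and *Sox9* (−0.86) overlapped. The 4 adipocyte markers summed to 0.102, 4.52 and 7.56 FPKM in LTBP4-CKO libraries, against 86.6, 42.8 and 101 FPKM in WT libraries, and *Adipoq*, *Plin1* and *Retn* were listed at 0 in LTBP4-CKO library 1. Schwann cell markers had a median of −1.22 (3 of 3 below 0), mesothelial markers of −0.92 (2 of 3 below 0) and erythroid markers of −0.34 (2 of 2 below 0). The remaining mesothelial marker, *Wt1*, had an estimate of 1.19. It had 5.66, 19 and 16.4 FPKM in LTBP4-CKO libraries, against 2.86, 4.84 and 3.29 FPKM in WT libraries, higher in every LTBP4-CKO library. The Schwann cell median was −0.40 without WT libraries 1 and 3 and −0.82 without LTBP4-CKO library 1. The erythroid median was 0.33 without LTBP4-CKO library 1 and −1.51 without WT libraries 1 and 3. The 4 general cardiomyocyte markers summed to 24248, 7869 and 7760 FPKM in LTBP4-CKO libraries, against 4547, 11362 and 4588 FPKM in WT libraries, with 0 of 4 estimates below 0 (median 0.93). Without WT libraries 1 and 3 this median was 0.25, with 2 of 4 below 0. Without LTBP4-CKO library 1 it was 0.11, with 1 of 4 below 0. The part of any of these cell types in the collagen values was not tested.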

How the data were processed

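Heart RNA was sequenced with an Illumina TruSeq kit, per the labels' protocols. The deposited values are FPKM, made by the authors with Cufflinks on mm10, per the submitters' processing notes. Not given in the sources used here are the tool's version, the aligner, the gene annotation, filters and whether strand was kept. Genes with at least 1 FPKM in at least 3 libraries (12485 genes) were tested on log2(FPKM + 1), a scale that understates changes of low genes, with limma 3.58.1 (eBayes with trend and robust, R 4.3.3), Benjamini-Hochberg adjustment over all genes and a threshold of 0.05. The fit of 4 samples had 2 residual and a median of 4.55 prior degrees of freedom. The tests were tested on simulated data. The outcome is not given here, so how often a true change would be missed with 4 samples is not stated.

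Depth was recovered from low FPKM of 2920 genes, where 74.5% to 78.6% of values fell within 0.15 of whole reads. This is too few for a count test, and the depths are approximate. Close pairs (under 3 times the counting variance in each of 5 bins) were averaged as FPKM. Positions, strand and exons come from the files and GENCODE M21, on the same build, and promoter windows from RefSeq. Ratios were tested with scipy 1.17.1.

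The collagen genes, the classes and the lists were chosen with earlier results of these data known. Every collagen gene was named, with up to 4 genes per pathway list by smallest p. Alternatives covered the pseudocount, the filter, the scaling, the pairs, the record numbers, the replicate numbers and each library. The filter on the mean was added after seeing the data.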

Additional observations from a re-analysis of the deposited data

How the results depend on the processing

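No collagen gene passed under any of the 16 alternatives with a test, and the smallest adjusted p of a collagen gene was 0.128 (limma, Benjamini-Hochberg, 6 libraries as separate samples, where 17 of 31 had an unadjusted p under 0.05). Alternatives that left 1 sample in a genotype take its spread from the other genotype, so their tests are no support for stability. Of the 31 tested genes, 22 kept the sign of their estimate in every setting that held them, and 9 did not (*Col4a1*, *Col4a2*, *Col4a3*, *Col4a5*, *Col8a1*, *Col9a2*, *Col14a1*, *Col15a1* and *Col18a1*). The cause of each change below was not tested. The count of all genes called, 1 in the report, was 9 with no filter, 2 with 6 separate libraries, 5 without LTBP4-CKO replicates 2 and 3, and 1 to 12 when 1 library was left out (12 without WT library 2). A filter on the mean of the 6 libraries tested 30 collagen genes, 29 of them below 0, with a median of −0.73. The shallowest library, WT library 2, limits the genes near 1 FPKM.

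Whether replicate numbers pair the samples could not be decided. Same-numbered libraries had correlations of 0.12, 0.12 and −0.10 in their deviations from the group means, and LTBP4-CKO library 3 correlated best with WT library 2 (0.11). Because each genotype holds a close pair, the signs and sizes of these correlations largely follow from the pairs. With the replicate number as a block, 0 collagen genes and 1 gene in all were called, and the collagen median was −0.99. With 6 separate libraries, alone, with the block or with a term for the record set, *Col18a1* was at 0.14, *Col4a1* at 0.02, *Col4a2* at 0.09 and the FACIT median at −1.12. With 6 separate libraries the log2 ratio differences were −0.04 for *Col14a1*/*Col1a1*, 0.11 for *Col18a1*/*Col4a1*, −0.05 for *Col3a1*/*Col1a1* and −0.07 for *Col4a1*/*Col4a2*.

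Without WT libraries 1 and 3 the estimates were 0.07 for *Col14a1*, 0.23 for *Col15a1*, 0.44 for *Col4a1*, 0.10 for *Col4a2*, 0.13 for *Col4a3*, 0.20 for *Col4a5*, 0.67 for *Col8a1*, 0.27 for *Col9a2* and 0.17 for *Lox*. The class medians were then −0.55 (fibrillar), −0.39 (FACIT), −0.28 (beaded filament) and 0.12 (basement membrane), and the ratio differences were 0.01 for *Col12a1*/*Col1a1*, −0.08 for *Col1a1*/*Col1a2* and 0.02 for *Col5a2*/*Col5a1*. Without LTBP4-CKO libraries 2 and 3, *Col4a3* was at 0.16, *Col4a5* at 0.34, *Col8a1* at 0.26, *Fkbp14* at −0.21 and *Col4a5*/*Col4a1* at 0.99.

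Leaving out 1 library at a time gave ranges of −0.49 to 0.44 for *Col15a1*, −0.32 to 0.83 for *Col18a1*, −0.47 to 0.55 for *Col4a1*, −0.21 to 0.55 for *Col4a2*, −0.44 to 0.08 for *Col9a2*, 0.00 to 0.95 for *Fkbp14* and −0.73 to 0.45 for *Sparc*. Without a change of direction, 1 library moved other estimates by over 1.5 times, with ranges of −2.07 to −0.78 for *Col4a5*, −1.85 to −0.84 for *Col14a1*, −1.57 to −0.43 for *Col8a1*, −2.32 to −1.39 for *Col5a2*, −1.35 to −0.72 for *Col6a2*, −0.95 to −0.34 for *Col4a3* and −3.10 to −1.45 for *Lox*. *Col4a3* and *Col4a5* were lowest without LTBP4-CKO library 1 and the others without WT library 2. Without WT library 2, *Col4a6* was at −1.78, *Col7a1* at −0.15, *Col11a2* at −0.15, *Col5a3* at −0.20, *Col9a3* at 0.42, *Fkbp10* at −0.98, *Creb3l1* at −0.68, *Prelp* at −2.47, *Ctsk* at −1.63 and *Bmp1* at −0.28. Without LTBP4-CKO library 1, *Col11a2* was at −0.71, *Col5a3* at −0.54, *Col9a3* at 0.43, *Mmp2* at −1.94, *Pcolce2* at −1.62, *Itga11* at −1.11 and *Ddr2* at −0.71. The FACIT median ran from −1.19 to −0.84 and the beaded filament median from −1.19 to −0.72. The ratio differences ran from −0.43 to 0.14 for *Col12a1*/*Col1a1*, −0.33 to 0.36 for *Col14a1*/*Col1a1*, −0.35 to 0.35 for *Col18a1*/*Col4a1*, −0.10 to 0.01 for *Col3a1*/*Col1a1*, −0.26 to 0.05 for *Col4a1*/*Col4a2* and −0.12 to 0.16 for *Col6a1*/*Col6a2*.

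With a pseudocount of 0.1 the medians were −1.36 (FACIT), −0.77 (anchoring fibril), −0.45 (transmembrane) and −1.29 (other collagens). The record numbers fall into 2 runs. In the first, with 2 libraries a group, *Col9a2* was at 0.02. In the second, with 1 library a group and no test, the median was −1.23 for all collagen genes, −1.65 (fibrillar), −1.44 (beaded filament), −1.29 (basement membrane), −2.30 (network), −0.50 (transmembrane) and −1.27 (other collagens). *Col15a1* was then at 0.04, *Col18a1* at 1.07, *Col4a1* at 0.07, *Col4a2* at 0.39 and *Sparc* at 0.11. The ratio differences there were 0.29 for *Col12a1*/*Col1a1*, −0.72 for *Col14a1*/*Col1a1*, 1.04 for *Col18a1*/*Col4a1*, −0.16 for *Col3a1*/*Col1a1*, −0.33 for *Col4a1*/*Col4a2*, 0.08 for *Col6a1*/*Col6a2* and −0.73 for *Col8a1*/*Col1a1*.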
